A study of Mus musculus with 6 samples.

Results

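Mouse embryonic fibroblast cultures were compared by how much macrophage RNA they held. Each of the 6 libraries of the series was ranked by the mean of log2(FPKM + 1) of 4 leukocyte genes, Ptprc, Tyrobp, Csf1r and Fcer1g, where FPKM is a fragment level corrected for the length of the transcript and for depth. The top 3 libraries (wild-type 2, wild-type 3 and knockout 1) are called macrophage-rich and the bottom 3 (wild-type 1, knockout 2 and knockout 3) macrophage-poor, so all 6 of 6 libraries are used. The groups were thus chosen by measured values: whatever these 4 genes and other leukocyte genes show between them is given as a description, without a test. Embryonic fibroblasts are primary cells grown out of minced embryos, and such cultures can carry along macrophages of the embryo. Macrophages live on signals through the receptor Csf1r, whose ligands Csf1 and Il34 are made by mesenchymal cells. In return they release growth factors and cytokines that fibroblasts can sense, and they clear debris through lysosomes.

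The series holds 3 libraries of Stc1+/+ (wild-type) and 3 of Stc1-/- (knockout) cells on a C57BL/6 background, all grown in DMEM with serum and read as messenger RNA. Stc1 encodes stanniocalcin-1, a secreted glycoprotein. The macrophage-rich group holds 2 wild-type libraries and 1 knockout library, and the macrophage-poor group 1 wild-type library and 2 knockout libraries, so genotype entered the fits as a second term unless stated otherwise. Whether replicates stem from different embryos or cultures, the age of the embryos and the passage of the cells are not in the labels. The p-values thus cover the spread among these 6 libraries, which may be technical, and since the groups were made from the data they describe how a gene tracks the split. The titles of wild-type 1 and knockout 3, both macrophage-poor, carry the letter F, which the labels do not explain. Estimated fragments ranged from 21882092 (knockout 1) to 71488701 (wild-type 1). The targeted gene stood at 31.8, 6.82 and 7.62 CPM (a fragment count scaled to the effective library size, not corrected for length) in wild-type 1, 2 and 3, and at 0.282, 0 and 0 CPM in knockout 1, 2 and 3, which matches the labels.

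The 4 marker genes separated the libraries widely. Ptprc, the leukocyte surface phosphatase CD45, stood at 5.64, 44.5 and 6.78 FPKM in wild-type 2, wild-type 3 and knockout 1. It stood at 0.0953, 0.502 and 0.61 FPKM in wild-type 1, knockout 2 and knockout 3. Tyrobp, the adaptor DAP12 of myeloid receptors, stood at 105, 1276 and 153 FPKM in the first set and at 1.6, 15.8 and 19.6 FPKM in the second. Csf1r stood at 32.2, 269 and 17 FPKM against 1.01, 1.58 and 1.64 FPKM. Fcer1g, the common Fc receptor gamma chain, does not have a locus of its own in the files, and the locus that holds it stood at 181, 775 and 201 FPKM against 97.6, 108 and 120 FPKM.

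Wild-type 3 held by far the most marker RNA, and wild-type 1 the least. The mean log2 score was 5.5, 8.38 and 5.51 in wild-type 2, wild-type 3 and knockout 1, and 2.28, 3.2 and 3.34 in wild-type 1, knockout 2 and knockout 3. The members just inside and just outside the boundary, wild-type 2 and knockout 3, were 2.16 apart on the log2 scale. The same 3 libraries came out on top in 9 of 9 ways of ranking, among them without Fcer1g and by the mean of a separate list of pan-leukocyte genes.

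**Figure D1:**
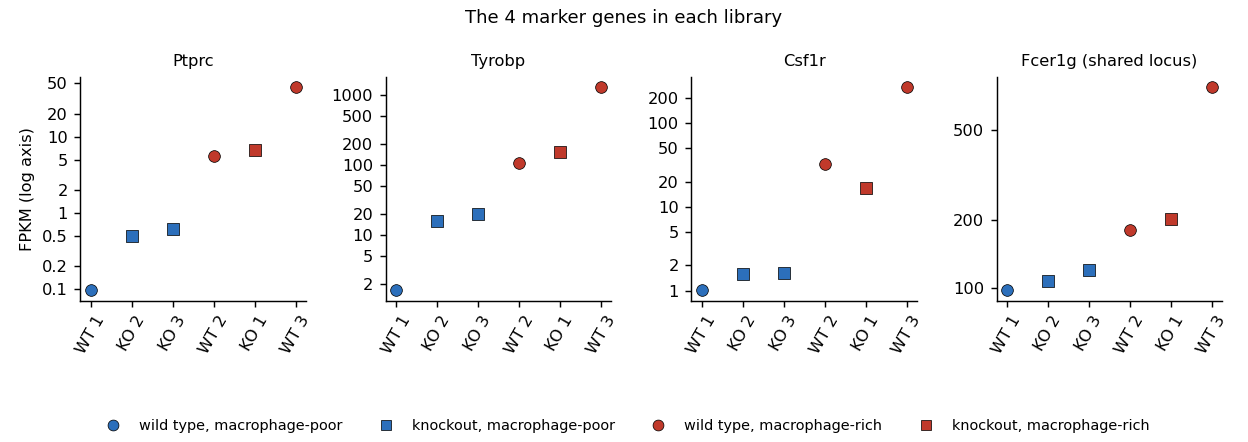
FPKM (log axis) of the 4 marker genes in each library, ordered from the lowest to the highest marker score; circles are wild-type and squares knockout libraries, blue is macrophage-poor and red macrophage-rich. Tyrobp ranges from 1.6 FPKM in wild-type 1 to 1276 FPKM in wild-type 3, and knockout 2 and knockout 3 lie between wild-type 1 and the macrophage-rich libraries.

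Other leukocyte genes followed the markers. Of 37 listed pan-leukocyte genes, 35 had a locus of their own and all 35 were tested. In 34 of them every macrophage-rich library lay above every macrophage-poor one, where 11.3% of the 15673 genes tested did so, and the median difference was 5.51 on the log2 scale, against 0.03 over all genes tested. The exception was Arhgdib, which stood at 206, 301 and 639 CPM in the macrophage-rich and 571, 559 and 352 CPM in the macrophage-poor libraries. Laptm5, a lysosomal protein of blood cells, stood at 122, 983 and 173 CPM against 2.07, 14.2 and 18 CPM. Spi1, which encodes PU.1, a transcription factor that macrophages need, stood at 18.9, 192 and 24.4 CPM against 0.354, 2.12 and 2 CPM. Among macrophage receptors, 32 of 36 listed genes had a locus of their own and 30 were tested. Adgre1, the surface protein F4/80, stood at 74.7, 972 and 168 CPM against 1.6, 12.9 and 22.3 CPM, and 29 of the 30 had a higher fitted level in the macrophage-rich libraries. The rule used genes of the same cells, so nothing further is read from these counts.

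Leukocyte genes took a small share of the RNA even in the macrophage-rich libraries. The 99 leukocyte genes that were under 5 FPKM in the library lowest in markers took 0.324%, 2.67% and 0.393% of fragments in wild-type 2, wild-type 3 and knockout 1, and 0.0169%, 0.0452% and 0.0617% in wild-type 1, knockout 2 and knockout 3. In bulk RNA, fewer macrophages and less RNA per macrophage cannot be told apart. Most markers of other blood cells were near 0. The 12 lymphocyte genes summed to between 1.13 and 1.88 FPKM per library, and the 9 mast cell and basophil genes to between 0.374 and 0.503 FPKM, with the mast cell protease gene Cpa3 at 0 CPM in all 6 libraries. The 10 neutrophil genes summed to between 1.03 FPKM (wild-type 2) and 137 FPKM (knockout 1). S100a8, a calcium-binding protein, stood at 0.0703, 5.36 and 38.1 CPM in wild-type 2, wild-type 3 and knockout 1 and at 8.08, 20.5 and 27.5 CPM in the macrophage-poor libraries, while S100a9, its usual partner, stood at 0.117 CPM or less in every library. Endothelial genes summed to 15.8, 13.4 and 12.2 FPKM in the macrophage-rich and 14.9, 18.3 and 7.49 FPKM in the macrophage-poor libraries, which overlap. Flt1, a receptor for vascular endothelial growth factor, stood at 73.0, 26.2 and 49.98 CPM against 94.1, 115 and 41.2 CPM. Single endothelial genes stood higher in the macrophage-rich libraries: of 7 tested, 6 had a positive difference, with a median of 1.16 (log2), 3 had an edgeR unadjusted p under 0.05 (3.75% of all genes), and DESeq2 called 2 higher (2.53% of all genes). Cdh5, the cadherin of endothelial junctions, stood at 3.7, 0.89 and 2.63 CPM in wild-type 2, wild-type 3 and knockout 1 against 0.326, 0.51 and 0.377 CPM in the macrophage-poor libraries, and Vwf, von Willebrand factor, at 5.08, 50.2 and 30.3 CPM against 5.25, 5.9 and 3.88 CPM. The part of endothelial cells in the results below was not tested.

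The macrophage RNA differed in kind between libraries of like macrophage content. Wild-type 2 and knockout 1 had nearly the same marker score, and the 34 pan-leukocyte genes averaged 4.49 log2 CPM in wild-type 2, 4.78 in knockout 1 and 7.34 in wild-type 3. Yet C1qa, a chain of the complement component C1q that tissue macrophages make, stood at 90.5 CPM in wild-type 2, 810 CPM in wild-type 3 and 2.91 CPM in knockout 1. Relative to the pan-leukocyte average, C1qa was 5.03 log2 units higher in wild-type 2 than in knockout 1 and 5.33 higher in wild-type 3. The corresponding differences were 4.23 and 4.92 for C1qb, and 4.75 and 5.37 for C1qc. Fcrls, a receptor gene known from microglia and other resident macrophages, stood at 133 and 337 CPM in wild-type 2 and wild-type 3 and at 1.6 CPM in knockout 1. Cx3cr1, the fractalkine receptor, stood at 44.3, 27.4 and 0.094 CPM, and Mrc1, the mannose receptor CD206, at 89.4, 552 and 7.7 CPM, in the same order.

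Other macrophage genes went the opposite way. Mmp12, macrophage elastase, stood at 13 and 196 CPM in wild-type 2 and wild-type 3 and at 727 CPM in knockout 1, which relative to the pan-leukocyte average was 5.46 and 4.45 log2 units lower than in knockout 1. Acp5, the tartrate-resistant acid phosphatase of osteoclasts and activated macrophages, was 4.22 and 3.88 units lower on that scale. The chemokine gene Ccl6 was 3.93 and 3.31 units lower, and the scavenger receptor gene Cd36 2.73 and 2.94 units lower. Knockout 2 and knockout 3 had little macrophage RNA. Mmp12 lay 3.83 and 4.2 log2 units above the pan-leukocyte average there, against 4.73 in knockout 1, and C1qa stood at -2.25 and -2.22. Acp5 stood at 1.53 and 1.39 in knockout 1 and knockout 2 but at -1.28 in knockout 3, nearer to wild-type 2 (-2.69) and wild-type 3 (-2.35). Wild-type 1, with the least macrophage RNA, did not have the values of the other wild-type libraries: relative to its own average, C1qa stood at -0.86, Mmp12 at 1.83, Acp5 at 0.88 and Cd36 at 1.34, against 2.02, -0.73, -2.69 and 0.26 in wild-type 2. These low libraries rest on few reads, as C1qa had 18 fragments in wild-type 1, 7 in knockout 2 and 17 in knockout 3. The relative scale adds 0.5 CPM before the log, and the pan-leukocyte average was only 0.45 log2 CPM in wild-type 1. It was 1.7 and 2.0 in knockout 2 and knockout 3. Low genes thus cannot fall far below the average there, so negative values are not comparable with those of wild-type 2 or knockout 1. Trem2, Fcgr3 and Mpeg1 lay within 1 log2 unit of knockout 1 in both wild-type libraries on the relative scale. Not every general macrophage gene did so. The marker Csf1r was 1.2 and 1.39 units higher in wild-type 2 and wild-type 3 than in knockout 1. The lysosomal gene Ctss was 1.35 and 0.41 units lower. These genes were chosen after their values were seen, and no test was made.

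**Figure D2:**
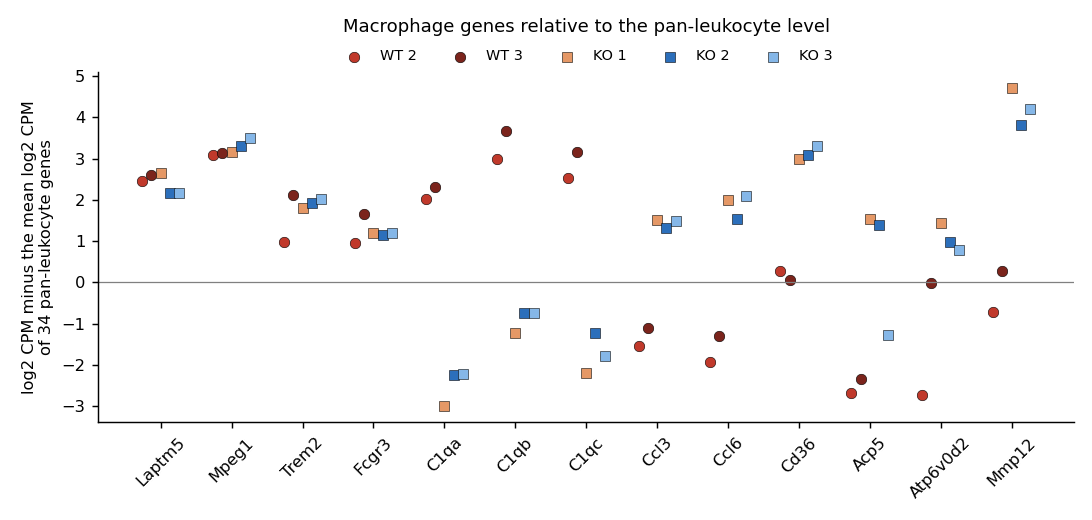
Level of 13 macrophage genes in 5 libraries as log2 CPM minus the mean log2 CPM of 34 pan-leukocyte genes in the same library; circles are wild-type, squares knockout, and wild-type 1, the lowest in macrophage RNA, is given in the text only. Laptm5 and Mpeg1 sit together in all 5 libraries, while C1qa, C1qb and C1qc are high in both wild-type libraries and Mmp12, Ccl3, Ccl6 and Cd36 are high in the 3 knockout libraries.

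Across all genes, no difference between macrophage-rich and macrophage-poor libraries passed the adjusted threshold of 0.05 in edgeR's quasi-likelihood fit with genotype as a covariate. Of 15673 genes, 0 were called higher (0%) and 0 lower (0%), and 0.629 was the smallest Benjamini-Hochberg adjusted p. At an unadjusted p under 0.05 it gave 588 higher genes (3.75%) and 615 lower genes (3.92%). DESeq2 called 448 genes higher (2.53%) and 174 lower (0.984%) of the 17690 with an adjusted p. With the marker score as a continuous covariate, edgeR called 328 higher and 39 lower of 15673. These counts include the marker and leukocyte genes, whose direction the rule fixed. With the loci of the marker and leukocyte lists left out, DESeq2 called 364 higher and 174 lower of 17577, and the continuous score 261 higher and 39 lower of 15567; leukocyte genes on no list are still among them. The unadjusted count of 1203 was 377 without wild-type 1 and 1887 without wild-type 2. Since no gene passed, the genes below are named by the smallest p in their list, and their edgeR p-values are unadjusted unless said otherwise. For the 32 genes followed through the alternative fits, 0 of 607 values had the opposite direction. Of these 32 genes, 23 passed the adjusted threshold in DESeq2 and only 3 with the continuous score. Most of them were chosen for a small p in these same libraries, so a kept direction is not independent support.

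Fibroblast identity genes were described next, apart from leukocyte genes. Of 34 listed genes, 32 had a locus of their own and 30 were tested. At an unadjusted p under 0.05, edgeR gave 4 as higher (3.75% of all genes) and 4 as lower (3.92% of all genes). The median difference of the list was -0.15 (log2), and 18 of 30 had the same sign in both genotypes, where 60% of all genes did. Mfap5, which encodes a microfibril-associated glycoprotein of elastic fibres, had the smallest p. It stood at 99.8, 34.8 and 25.1 CPM in wild-type 2, wild-type 3 and knockout 1 and at 8.45, 5.52 and 3.62 CPM in wild-type 1, knockout 2 and knockout 3. The groups did not overlap, and the lowest macrophage-rich library was well above the highest macrophage-poor one. The fitted difference was 2.73 ± 0.51 (log2, SE; edgeR unadjusted p = 0.00285, DESeq2 adjusted p = 5.98e-05), and the unadjusted p stayed at or under 0.0244 without any single library. On the continuous marker score, edgeR gave Mfap5 an adjusted p of 0.435. Nt5e, the ecto-nucleotidase CD73, stood at 11.1, 10.1 and 27.6 CPM against 1.7, 10.4 and 12.1 CPM, so the groups overlapped. Within each genotype its macrophage-rich libraries were still the higher ones. Pi16 and Dpp4, markers of adventitial fibroblast progenitors, also had higher fitted levels but were under 1 CPM in all 6 libraries. They had 3 to 11 fragments in the macrophage-poor libraries and passed the filter on low counts through the macrophage-rich ones, so the count of 4 higher genes is not read as support.

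Pdgfra, the receptor for platelet-derived growth factor that marks most fibroblasts, stood lower in the macrophage-rich libraries. It was at 140, 123 and 88.4 CPM there and at 185, 195 and 183 CPM in the macrophage-poor libraries, without overlap. The difference was -0.79 ± 0.21 (log2, SE; edgeR unadjusted p = 0.0108, DESeq2 adjusted p = 0.0436), but it was -0.50 without knockout 1 and -1.1 without wild-type 1, and the unadjusted p reached 0.108. On the continuous marker score, edgeR gave Pdgfra an adjusted p of 0.354. Prrx2, a homeobox factor of mesenchyme, stood at 66.3, 62.2 and 58.9 CPM against 108, 79.9 and 122 CPM. Dpt, the matrix protein dermatopontin, stood at 10.8, 20.4 and 2.82 CPM against 53.6, 21.6 and 8.83 CPM, and Fbln1, fibulin-1, at 77.9, 57.6 and 35.1 CPM against 102, 58.9 and 70.5 CPM. These last groups overlapped, and within each genotype the macrophage-rich libraries were the lower ones. Vim, the intermediate filament of mesenchymal cells, stood at 4136, 3132 and 2205 CPM against 3315, 2402 and 2949 CPM, a difference of -0.07 ± 0.27 (log2, SE).

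Matrix genes showed no common direction. Of 46 listed, 42 had a locus of their own and 40 were tested, of which 20 had a positive and 20 a negative fitted difference, with a median of 0.01 (log2). Single libraries set that median: it was -0.45 without wild-type 1, -0.41 without wild-type 2 and 1.03 without knockout 1. Fn1 and Thbs1 were marked in some or all libraries as having too many fragments to estimate and were not analysed here. At an unadjusted p under 0.05 in edgeR, 1 of the 40 stood higher (3.75% of all genes) and 0 lower (3.92% of all genes). That count is not read as a result about the list. The gene was Col14a1, a collagen that sits on the surface of fibrils. It stood at 25.8, 10.7 and 3.43 CPM in wild-type 2, wild-type 3 and knockout 1 and at 0.75, 0.992 and 0.665 CPM in the macrophage-poor libraries. The difference was 3.34 ± 0.85 (log2, SE; edgeR unadjusted p = 0.0104, DESeq2 adjusted p = 0.000343), and 2.04 without wild-type 1. Col14a1 had an edgeR adjusted p of 0.42 on the continuous marker score. Within wild type the median of the list was 0.74 higher in the macrophage-rich libraries and within knockout it was -0.43. Of the 40 genes, 26 were highest in wild-type 2 and 23 lowest in knockout 1. Col1a1, the main chain of type I collagen, shows this: it stood at 11990, 3408 and 829 CPM in the macrophage-rich and 3111, 2080 and 2318 CPM in the macrophage-poor libraries, a difference of -0.05 ± 0.97 (log2, SE).

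Contractile genes, which mark myofibroblasts, had 12 positive and 13 negative differences among 25 tested, and none had a p under 0.05 in the edgeR fit. The median was -0.08, and it was -0.37 without wild-type 2 and 0.38 without knockout 1. Acta2, smooth muscle actin, stood at 5627, 2035 and 1414 CPM against 2818, 2215 and 2371 CPM, so the groups overlapped. Wild-type 2 was the highest library in 21 of the 25 genes.

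Matrix proteases and their inhibitors lay in both directions. Of 26 tested, 3 had a higher and 3 a lower level with p under 0.05, unadjusted, against 3.75% and 3.92% of all genes. Without wild-type 1 these were 1 and 0, against 230 and 147 of 15960 genes. Adamts1 and Adamts5, proteases that cut the proteoglycans versican and aggrecan, stood higher. Adamts1 stood at 153, 131 and 83.8 CPM against 51.5, 56.7 and 50.8 CPM, a difference of 1.05 ± 0.25 (log2, SE; edgeR unadjusted p = 0.00752). Adamts5 stood at 110, 128 and 32 CPM against 14.9, 18.2 and 15.2 CPM, a difference of 1.97 ± 0.55 (log2, SE; edgeR unadjusted p = 0.0149). Without wild-type 1 the differences were 0.63 and 0.93. For both, the macrophage-poor libraries lay close together and all macrophage-rich libraries lay above them. The related Adamts4 went the other way, with 21.1, 12.6 and 30.8 CPM against 37.2, 44.9 and 52.9 CPM. Mmp19, a secreted metalloproteinase, stood at 53.1, 58.5 and 72.1 CPM against 117, 107 and 162 CPM, a difference of -0.98 ± 0.21 (log2, SE; edgeR unadjusted p = 0.00519). The third higher gene, Mmp8, the neutrophil collagenase, stood at 0.468, 8.88 and 69.7 CPM against 1.23, 4.43 and 4.3 CPM, and its groups overlapped. The third lower gene, Timp4, was under 2 CPM in every library.

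**Figure D3:**
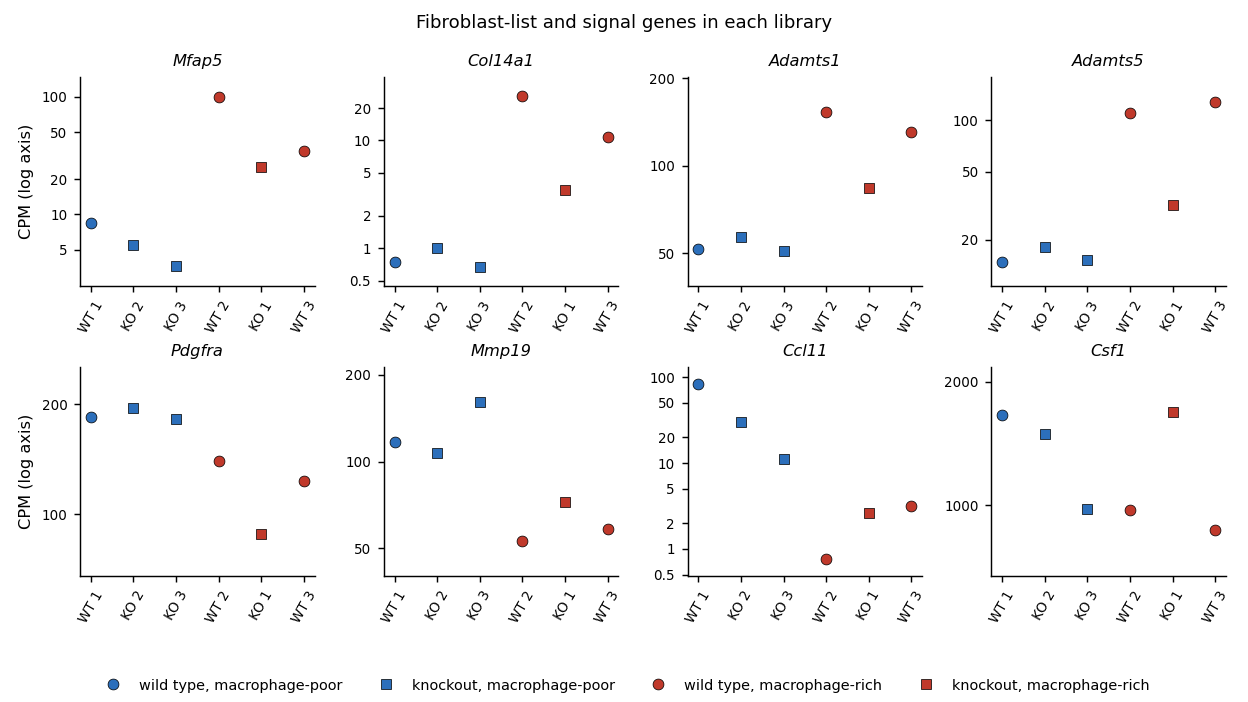
CPM (log axis) of 8 genes in each library, ordered by marker score; circles are wild-type and squares knockout libraries, blue is macrophage-poor and red macrophage-rich. Mfap5, Col14a1, Adamts1 and Adamts5 are higher and Pdgfra, Mmp19 and Ccl11 lower in all 3 macrophage-rich libraries, and Csf1 overlaps between the groups.

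Signals that draw or feed macrophages had no common direction. All 25 genes of this list were tested, of which 10 had a positive and 15 a negative difference, with a median of -0.20 (log2), which was 0.22 without wild-type 1. Without knockout 1, 7 had a lower level at an unadjusted p under 0.05 (5.82% of all genes), against 1 with all libraries (3.92%). Csf1, the main growth factor of macrophages, was abundant in every library, at 973, 870 and 1686 CPM in the macrophage-rich and 1659, 1494 and 979 CPM in the macrophage-poor libraries. Its groups overlapped and the difference was -0.20 ± 0.37 (log2, SE). Il34, the other ligand of Csf1r, stood at 7.12, 7.14 and 9.21 CPM against 6, 4.64 and 4.95 CPM. The groups did not overlap, but the difference of 0.59 ± 0.27 (log2, SE) had an edgeR unadjusted p of 0.0747.

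The chemokine genes Ccl2 and Ccl7, which draw monocytes, were low only in part of the macrophage-rich group. Ccl2 stood at 62.7, 188 and 1467 CPM in wild-type 2, wild-type 3 and knockout 1 against 1438, 1535 and 949 CPM. The 2 macrophage-rich wild-type libraries were below all others, whereas knockout 1 lay among the macrophage-poor libraries. Ccl11, eotaxin-1, was the member with a p under 0.05: it stood at 0.773, 3.19 and 2.63 CPM against 83.8, 29.9 and 11.2 CPM, without overlap. The difference was -4.22 ± 0.92 (log2, SE; edgeR unadjusted p = 0.0056, DESeq2 adjusted p = 0.000122). It was -2.97 without wild-type 1, and the largest unadjusted p without a single library was 0.0691. Ccl11 had an edgeR adjusted p of 0.226 on the continuous marker score.

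Of signals that macrophages are known to make, 23 of 26 listed genes had a locus of their own and 22 were tested; 19 had a positive difference, with a median of 1.48 (log2). Since macrophages express them, they are given without a test. Osm, which encodes oncostatin M, stood at 1.57, 16.1 and 10.4 CPM in wild-type 2, wild-type 3 and knockout 1 against 0.0425, 0.241 and 0.0887 CPM, and Tnf at 2.32, 23.1 and 17.2 CPM against 0.0708, 0.697 and 0.932 CPM. Both were higher in knockout 1 than in wild-type 2, although the 2 libraries had about the same marker score. The growth factor gene Pdgfb stood at 7.45, 53.1 and 9.91 CPM against 0.864, 1.74 and 4.97 CPM. Igf1 stood at 53, 299 and 37.2 CPM against 17.9, 31.6 and 37.4 CPM, and Spp1, osteopontin, at 2694, 8891 and 6655 CPM against 1802, 3765 and 9128 CPM, so both overlapped. The 17 receptors through which fibroblasts sense such signals had a median of 0.16 (log2). At an unadjusted p under 0.05 in edgeR, 1 of them stood higher (3.75% of all genes) and 0 lower (3.92% of all genes). That gene, the TGF-beta receptor Tgfbr1, stood at 99.4, 195 and 85.3 CPM against 53.9, 55.9 and 62.7 CPM. It was highest in wild-type 3, and whether its RNA came from fibroblasts or macrophages was not tested.

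Of the lists outside the leukocyte genes run here, the interferon response genes had the most members that separated the groups, and they stood lower in the macrophage-rich libraries. Type I and type II interferons act through transcription factors that bind short repeats in the promoters of antiviral and antigen-processing genes. Of 38 listed genes, 33 had a locus of their own and all 33 were tested. A negative difference was found in 32 (46.7% of all genes), 22 had a lower level at an unadjusted p under 0.05 (3.92% of all genes) and 0 a higher level (3.75%). In 26 of the 33, every macrophage-rich library lay below every macrophage-poor one, where 10.5% of all genes tested did so. The median difference was -1.6 (log2). No member passed the adjusted threshold in edgeR's fit on the split, while DESeq2 called 11 lower (0.984% of all genes). With the continuous marker score, edgeR called 2 members lower, and 39 of all 15673 genes.

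The repeat can be seen in the promoters of members that differ most. The core of the interferon response element, GAAA and GAAA separated by any pair of bases (GAAA-NN-GAAA, read as TTTC-NN-TTTC on the other strand), was searched on both strands in windows of 300 bases around the start site (250 before and 50 after, RefSeq, GRCm38.p6). It was found in 16 of the 29 listed interferon genes with a window (55.2%) and in 3.99% of all 27025 genes with a window. The parts of 5 windows that hold it are shown because these genes are among those described below; capitals mark the matches, overlapping matches run together, and each sequence is on the strand of the gene. The stretches lie at chr11:48871421-48871485 (Irgm1, minus strand), chr4:156200840-156200931 (Isg15, minus strand), chr19:34640750-34640848 (Ifit1, plus strand), chr3:142559964-142560043 (Gbp3, plus strand) and chr5:92349058-92349137 (Cxcl10, minus strand).
Irgm1: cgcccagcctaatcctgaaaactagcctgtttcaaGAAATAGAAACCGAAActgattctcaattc
Isg15: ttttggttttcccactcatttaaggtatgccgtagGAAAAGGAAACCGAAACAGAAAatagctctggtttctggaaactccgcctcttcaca
Ifit1: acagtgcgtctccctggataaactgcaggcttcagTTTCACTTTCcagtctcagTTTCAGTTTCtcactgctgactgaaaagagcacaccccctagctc
Gbp3: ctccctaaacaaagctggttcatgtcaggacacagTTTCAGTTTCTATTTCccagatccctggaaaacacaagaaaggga
Cxcl10: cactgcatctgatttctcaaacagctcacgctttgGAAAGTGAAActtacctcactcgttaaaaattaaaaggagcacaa
A match is a description of these letters and not a measured binding site.

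Iigp1, an interferon-inducible GTPase whose locus in the files also carries the name Gm4951, had the smallest p of the list. It stood at 4.26, 4.53 and 31.6 CPM in wild-type 2, wild-type 3 and knockout 1 and at 116, 162 and 142 CPM in wild-type 1, knockout 2 and knockout 3. The difference was -3.49 ± 0.60 (log2, SE; edgeR unadjusted p = 0.00196, DESeq2 adjusted p = 9.29e-06), and -2.27 without wild-type 1. Irgm1, a related GTPase, was 54.8, 67.5 and 153 CPM against a tight 338, 327 and 337 CPM, a difference of -1.79 ± 0.34 (log2, SE; edgeR unadjusted p = 0.00292). Isg15, a ubiquitin-like modifier, stood at 13, 7.66 and 80.4 CPM against 218, 242 and 173 CPM. Ifit1, which binds foreign RNA, stood at 12.3, 25.7 and 136 CPM against 353, 413 and 288 CPM. In all 4 genes knockout 1 lay between the macrophage-rich wild-type libraries and the macrophage-poor libraries. On the continuous marker score, the edgeR adjusted p was 0.0926 for Iigp1 and 0.146 for Irgm1.

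Other members had the same order at other levels. Gbp3, a guanylate-binding protein, stood at 4.26, 7.35 and 49.2 CPM against 90.8, 116 and 91.7 CPM. Cxcl10, an interferon-induced chemokine gene listed among the NF-kB genes here, stood at 4.22, 4.9 and 36 CPM against 100, 187 and 47.5 CPM. Psmb9 and Oas3 overlapped: Oas3, an antiviral RNA sensor, stood at 1.85, 26.7 and 21.5 CPM against 23.7, 26.4 and 9.34 CPM. Irf1 was the member with a positive difference, of 0.01 ± 0.36 (log2, SE), at 25.8, 45 and 23.5 CPM against 25.6, 30.1 and 34.6 CPM.

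The same direction was seen within each genotype. Wild-type 2 and wild-type 3 both lay below wild-type 1 in 30 of 33 genes, where 30.7% of all genes did so, and knockout 1 lay below both knockout 2 and knockout 3 in 29 of 33, where 35.1% of all genes did so. The sign was the same in both genotypes for 31 of 33 genes, against 60% of all genes. For the 26 genes whose groups did not overlap, these orders and signs follow from that separation. The counts within genotypes are thus not separate support. The median was -2.46 (log2) within wild type and -0.77 within knockout. Wild-type 2 was the lowest library in 28 of the 33 genes although wild-type 3 held the most macrophage RNA, so the list did not follow the marker score library by library. The mean of the list was 3.4, 4.34 and 5.64 log2 CPM in wild-type 2, wild-type 3 and knockout 1 and 6.48, 6.77 and 6.21 in wild-type 1, knockout 2 and knockout 3. Wild-type 1 mattered most for the result: without it the median was -0.80 and 6 of 33 genes had a lower level at an unadjusted p under 0.05, where 0.921% of all genes did. Without knockout 1 the median was -2.33 and the count 23, where 5.82% of all genes did. Without wild-type 3, the library with the most leukocyte RNA, the median was -1.73 and the count 15, where 2.99% of all genes did. Whether macrophage content played a part in the level of these genes was not tested.

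**Figure D4:**
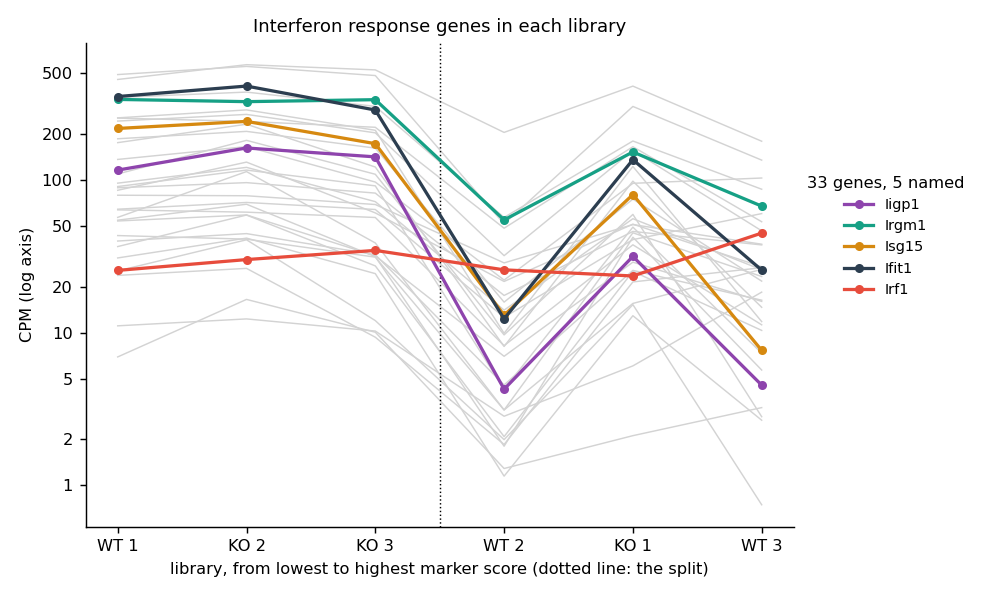
CPM (log axis) of 33 interferon response genes in each library, ordered from the lowest to the highest marker score, with 5 genes in colour and the rest in gray; the dotted line is the boundary between macrophage-poor (left) and macrophage-rich libraries (right). Most lines drop to the right of the boundary, lowest in wild-type 2, and Irf1 stays level.

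The NF-kB response list, which holds inflammatory genes induced by Tnf and interleukin-1, had opposite directions within wild type and within knockout. Wild-type 1 was the only macrophage-poor wild-type library, and knockout 1 the only macrophage-rich knockout library. Genotype and single libraries thus cannot be told apart here. All 27 genes were tested, 8 had a positive and 19 a negative difference, and 2 had a lower level at an unadjusted p under 0.05 (3.92% of all genes). The median was -2.0 (log2) within wild type and 0.37 within knockout. Over all libraries it was -0.31, and it was 0.36 without wild-type 1, 0.03 without wild-type 2 and -0.70 without knockout 1, where 9 genes had a lower level at that p (5.82% of all genes). Wild-type 2 was the lowest library in 22 of the 27 genes and knockout 1 the highest in 16. Ccl20, a chemokine gene, stood at 0.937, 0.517 and 10.8 CPM against 17.1, 26.3 and 29.5 CPM, a difference of -2.93 ± 0.79 (log2, SE; edgeR unadjusted p = 0.0136). Cxcl1, which draws neutrophils and sits in the list of signals, stood at 1.17, 12.1 and 406 CPM against 102, 151 and 112 CPM, and Il6 at 1.17, 8.92 and 272 CPM against 46.9, 88.1 and 43.6 CPM. For these 2 genes knockout 1 was the highest of all 6 libraries and the macrophage-rich wild-type libraries were the lowest.

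**Figure D5:**
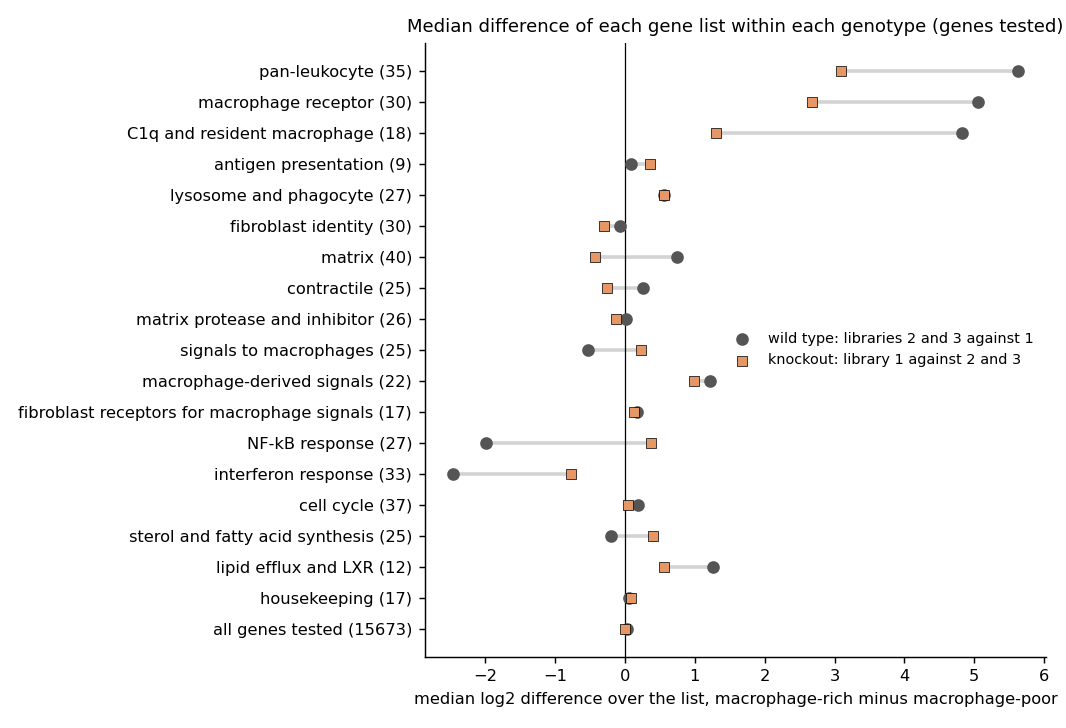
Median log2 difference, macrophage-rich minus macrophage-poor, of each gene list within wild type (circles) and within knockout (squares), with the number of genes tested in brackets. Interferon response genes are negative in both genotypes (-2.46 and -0.77), whereas the NF-kB and matrix lists lie on opposite sides of 0, and the housekeeping list lies at 0.05 and 0.08.

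The cell cycle, lipid and housekeeping lists had 0 genes called in edgeR's fit on the split, as had every other list. Of 37 cell cycle genes tested, 31 had a positive difference (53.3% of all genes), with a median of 0.31 (log2) that was -0.37 without wild-type 2. At an unadjusted p under 0.05, 2 stood lower, a share near the 3.92% of all genes. They were the cyclin genes Ccnd1 and Ccnd2. Ccnd1 stood at 298, 299 and 212 CPM against 670, 318 and 745 CPM, and Ccnd2 at 778, 478 and 697 CPM against 1289, 951 and 1300.0 CPM. Neither overlapped. Wild-type 2 was the highest library in 33 of the 37 genes and wild-type 3 the lowest in 29, so the 2 macrophage-rich wild-type libraries stood at opposite ends. Sterol and fatty acid synthesis genes had 12 positive and 13 negative differences among 25, with 0 at an unadjusted p under 0.05. Of 12 genes of lipid efflux, 11 had a positive difference, with a median of 1.06 (log2), or 0.33 without wild-type 3. They include Cd36 and Lpl, which macrophages express. DESeq2 called 1 of the 12 higher (2.53% of all genes). With the continuous marker score, edgeR called 3 of the 12 higher, and 328 of all 15673 genes. Of 27 lysosomal genes tested, 20 had a positive difference, with a median of 0.72, or 0.14 without wild-type 3. Lyz2, Ctsb and Ctsd of that list were so marked in the 3 wild-type libraries and were not analysed here.

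Outside the lists, the genes with the smallest p in each direction were described. Tgtp2, an interferon-induced GTPase, stood at 0.492, 0.269 and 1.74 CPM against 5.51, 11.8 and 15.2 CPM, a difference of -3.4 ± 0.41 (log2, SE; edgeR unadjusted p = 0.00034). Its neighbour Tgtp1 is nearly identical in sequence, so reads may be divided between them. St3gal6, a sialyltransferase, stood at 4.26, 2.36 and 0.986 CPM against 22.5, 17.1 and 13.2 CPM. Bpgm, bisphosphoglycerate mutase, stood at 20.5, 26.3 and 28.3 CPM against 55, 55.6 and 59.6 CPM, a difference of -1.13 ± 0.18 (log2, SE) with little spread in either group. Alx4, a homeobox factor of limb and skull mesenchyme, stood at 4.54, 3.64 and 7 CPM against 16.9, 20.4 and 38.8 CPM. Cpxm1, a secreted carboxypeptidase-like protein, stood at 36.5, 47.4 and 47.9 CPM against 97.6, 94 and 135 CPM. In all 5 genes the groups did not overlap, where 10.5% of all genes were lower without overlap. DESeq2 called each of the 5 lower, with adjusted p from 3.17e-11 (Tgtp2) to 0.000776 (Cpxm1). The 5 genes were chosen for a small p on this same split, so neither result is independent support.

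Higher genes were named only if above 5 FPKM in wild-type 1 and on no leukocyte list, a floor that limits their fold and was not set for lower genes. Spcs3, a subunit of the signal peptidase, stood at 130, 134 and 133 CPM against 79.2, 90.6 and 87.2 CPM, a difference of 0.66 ± 0.14 (log2, SE; edgeR unadjusted p = 0.00493). S100a16, a calcium-binding protein, stood at 31.2, 36.2 and 22.1 CPM against 6.96, 8.96 and 12.3 CPM. Sulf1, a sulfatase that trims heparan sulfate outside the cell, stood at 289, 253 and 221 CPM against 137, 153 and 152 CPM. Sgk1, a kinase induced by serum and glucocorticoids, stood at 265, 232 and 289 CPM against 162, 198 and 181 CPM. The glutamine transporter gene Slc38a1 and the metal transporter gene Slc39a14 differed by 0.74 ± 0.21 and 0.48 ± 0.14 (log2, SE). All 6 were higher in each macrophage-rich library than in any macrophage-poor one, where 11.3% of all genes were. They too were chosen for a small p on this split, so the separation is not independent support.

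The genotype comparison was read with and without the split. With the split as a covariate, edgeR called 0 genes between knockout and wild type (0% in each direction), and 211 higher (1.35%) and 103 lower (0.657%) had an unadjusted p under 0.05. DESeq2 called 42 higher (0.183%) and 13 lower (0.0567%). Without the split those with an unadjusted p under 0.05 came to 607. The pan-leukocyte list had a median genotype difference (knockout minus wild type) of 0.15 (log2) with the split and -2.54 without it. The C1q and resident macrophage list had -1.05 and -2.93. The interferon list stood at 0.78 with and 0.91 without the split, and the matrix list at -0.87 and -1.22. With the split, 37 of the 40 matrix genes were negative, against 54% of all genes. Wild-type 2 was the highest library in 26 of these 40. Other lists were as one-sided: 25 of 25 sterol and fatty acid synthesis, 35 of 37 cell cycle and 23 of 25 contractile genes were negative. In the NF-kB list 26 of 27 were positive, and in the interferon list 30 of 33. A test of whether the split acts differently in the 2 genotypes called 0 genes, and 646 genes (4.12%) had an unadjusted p under 0.05. The lowest adjusted p of that test was 0.739.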

How the data were processed

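Messenger RNA of 6 mouse embryonic fibroblast libraries was analysed. The mm10 build and the programs Cuffdiff 2.0.1, TopHat2 2.0.6 and CASAVA 1.8.2 are named in the submitters' processing notes. Per the file headers, the authors deposited for each locus an expected count of fragments, FPKM and a status; 26.9% of counts above 0 were not whole (tolerance 1e-06), and counts were rounded. Of 39495 loci, 2667 without a name (0.507% to 0.555% of fragments) and 16 marked HIDATA in some or all libraries were left out in all; 36812 remained, and 1132 marked FAIL were kept. A gene that shares its locus was not counted in its list.

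The test across genes was edgeR 4.0.16's robust quasi-likelihood test under R 4.3.3 (TMM scaling, filterByExpr, terms for genotype and split, Benjamini-Hochberg adjustment, threshold 0.05; 15673 genes; common biological coefficient of variation 0.404). Standard errors are the fitted difference divided by the root of F, an approximation. List means use log2(CPM + 0.5). Alternatives were DESeq2 1.42.0, limma 3.58.1 (voom, log2(FPKM + 1), log2(FPKM + 0.1)), other scalings and filters, a continuous marker score, no genotype term and leaving out each library; a fit without FAIL loci, genotype alone, list counts without each library and counts without the leukocyte lists were added after seeing the data. The fit was tested on simulated data. The closest pair of libraries, wild-type 1 and knockout 2, differed by a chi-square of 53.8 per degree of freedom, so none was counted as a repeat.

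Some members of the lists are counted but not reported by name here. The members and gene lists were chosen with earlier results of these data known. Named were the 4 markers, the 4 members of each leukocyte list with the highest FPKM, up to 4 of each other list with the smallest p in each direction, fixed genes of macrophage signalling, and 10 genes in each direction with the smallest p (for higher genes at least 5 FPKM in the library lowest in markers and on no leukocyte list, for lower genes a mean log2 CPM of at least 2). Not every gene this rule named is printed. Vim, Cxcl1, Il6, Isg15, Ifit1, Gbp3, Oas3, Psmb9, Spi1, Adgre1, Fcrls, Cx3cr1, Mrc1, S100a8, S100a9 and Cpa3 were added after their values were seen. So were the endothelial genes Flt1, Cdh5 and Vwf.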

Additional observations from a re-analysis of the deposited data

Results flagged for a closer look

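Results whose direction was opposite in the 2 genotypes in every library are listed here; the difference between genotypes was not tested for the lists, and 15.2% of all genes tested show such a pattern. In each case the first value is the mean of wild-type 2 and wild-type 3 minus wild-type 1, and the second knockout 1 minus the mean of knockout 2 and knockout 3, both in log2 CPM. The mean of the matrix list was 0.96 and -0.56, and Col1a1, its most abundant collagen named here, 1.04 and -1.4. The NF-kB response list was -1.77 and 0.40, and the list of signals to macrophages -1.21 and 0.34, with Csf1 at -0.85 and 0.48. The sterol and fatty acid synthesis list was -0.24 and 0.34, the matrix protease and inhibitor list -0.16 and 0.10, and the housekeeping list -0.034 and 0.11. Stc1 was -2.07 and 0.64, where the knockout value rests on 0 fragments in knockout 2 and knockout 3.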

How the results depend on the processing

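The count of genes called between macrophage-rich and macrophage-poor libraries was 0 in every alternative but DESeq2 (622) and the continuous marker score (367); leaving out single libraries gave 0 to 0. At an unadjusted p under 0.05 the 1203 genes became 1988 in DESeq2, 2600 with the continuous score, 1918 with no genotype term, and 377 to 1887 without single libraries. Between genotypes DESeq2 called 55, with 0 to 0 without single libraries, and the 314 genes at an unadjusted p under 0.05 became 509 with no filter, 712 in DESeq2, 630 with the continuous score, 607 with genotype alone and 86 to 1210 without single libraries. The pan-leukocyte median of 5.51 (log2) was 3.36 on log2(FPKM + 1), 3.09 in knockout libraries only and 3.29 to 7.75 without single libraries. Without single libraries the interferon median was -2.33 to -0.80, the matrix median -0.45 to 1.03, the fibroblast identity median -0.37 to 0.03 and the NF-kB median -0.70 to 0.36. In wild-type libraries only, the NF-kB median was -2.0 and the interferon median -2.46, and in knockout libraries only the interferon median was -0.77. The 32 genes named as higher or lower were chosen from these same libraries, mostly for a small p, so their counts are not independent support. For them, 0 of 607 alternative values turned direction, and 23 genes passed the adjusted threshold in DESeq2 and 3 with the continuous score. The causes of these differences were not tested. No paired analysis was possible because nothing in the labels ties a wild-type to a knockout library (the numbers 1 to 3 only name libraries in order). Depth limits genes under 1 CPM, such as Pi16 and Dpp4, most in knockout 1, the smallest library with 21882092 fragments.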
